A study of Mus musculus with 15 samples.

Results

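The 7 genes that make, load, clear and sense GABA in the brain and that are followed here through the mouse prefrontal cortex (PFC) are Gad1, Gad2, Slc32a1, Slc6a11, Abat, Gabbr1 and Gabbr2. They were picked by symbol and were 7 of the 26145 genes listed, and each was described across 8 cell classes, 26 excitatory and 12 inhibitory clusters, 2 ages and cocaine self-administration. The series holds 15 single-cell libraries of male C57BL/6N mice, with 35360 retained cells. Of these, 3 libraries came from mice of 3 weeks (P21) without any self-administration. The other 12 libraries came from mice of 8 to 10 weeks (P60) that had a jugular catheter and had been trained with food, and that pressed a lever for intravenous cocaine or for saline. Tissue was taken during the maintenance phase, 48 h after the last session or 15 days after it, with 2 libraries for each of the 6 groups of treatment and period. The study placed the catheter at P60, so tissue came from mice past that age and, for the withdrawal periods, later still. The saline periods were pooled in the comparison of ages. Each P60 library pooled the tissue of 2 mice, so a library is the replicate and a single mouse cannot be followed. How the P21 mice were divided over their libraries is not given in the sources used here, and the methods name fewer of them than 3 separate pools of 2 mice would need. The P21 libraries may therefore share animals, and p-values for age may then be too small. The saline groups had the same surgery, food training and lever sessions as the cocaine groups, whereas the P21 mice had none of these, so age and this handling cannot be told apart. Cell classes and clusters are those assigned by the authors, and the P21 cells had been named by their likeness to the P60 clusters.

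GABA is the main inhibitory transmitter of the cortex. It is made from glutamate by the glutamate decarboxylases, of which Gad1 encodes the form found throughout the neuron and Gad2 the form concentrated at axon terminals, and it is packed into synaptic vesicles by the transporter encoded by Slc32a1. Released GABA is taken up by membrane transporters, among them the astrocyte transporter encoded by Slc6a11, and broken down in mitochondria by the transaminase encoded by Abat. GABA-B receptors are slow, G protein coupled receptors built as a pair, in which the Gabbr1 subunit binds GABA and the Gabbr2 subunit couples to the G protein and carries the pair to the cell surface.

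In the NCBIM37 (mm9) build Gad1 (ENSMUSG00000070880) lies at chr2:70391129-70440071, Gad2 (ENSMUSG00000026787) at chr2:22477725-22549394 and Slc32a1 (ENSMUSG00000037771) at chr2:158436494-158441484. Slc6a11 (ENSMUSG00000030307) lies at chr6:114081235-114199880, Abat (ENSMUSG00000057880) at chr16:8513522-8621661, Gabbr1 (ENSMUSG00000024462) at chr17:37182911-37212012 and Gabbr2 (ENSMUSG00000039809) at chr4:46675190-47004745. All are protein-coding genes on the forward strand except Gabbr2, which is on the reverse strand. Antisense genes listed in the files overlap 3 of them: 1500002O10Rik at Gad1 had 5 unique molecular identifiers (UMIs, each standing for 1 captured RNA molecule) over the P60 inhibitory neurons, Gm14205 at Slc32a1 had 0 in every class of P60 cells, and Gm9851 at Abat had 11 in P60 excitatory neurons and 0 in P60 inhibitory neurons.

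The stretches around the start sites of 5 of these genes are shown because their levels in the cell classes carry the results below. Each runs from 250 bases before the start to 50 bases after it, 5′ to 3′ on the gene's strand, and was taken from RefSeq on the GRCm38.p6 build: Gad1 at chr2:70561879-70562178, Gad2 at chr2:22622077-22622376, Slc32a1 at chr2:158610508-158610807, Slc6a11 at chr6:114130991-114131290 and Gabbr1 at chr17:37045716-37046015, all on the forward strand. Capitals mark matches to the GC box sequence GGGCGG and the TATA box sequence TATAAA on either strand, wherever they lie in the window. The TATAAA match in Gad1 is on the reverse strand and well before the start, and whether any match acts was not tested.
Gad1: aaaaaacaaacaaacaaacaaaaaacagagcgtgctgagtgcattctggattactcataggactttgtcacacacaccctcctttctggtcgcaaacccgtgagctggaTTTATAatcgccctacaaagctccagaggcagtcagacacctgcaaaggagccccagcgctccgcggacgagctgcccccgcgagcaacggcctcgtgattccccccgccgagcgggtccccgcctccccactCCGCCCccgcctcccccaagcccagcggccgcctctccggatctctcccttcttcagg
Gad2: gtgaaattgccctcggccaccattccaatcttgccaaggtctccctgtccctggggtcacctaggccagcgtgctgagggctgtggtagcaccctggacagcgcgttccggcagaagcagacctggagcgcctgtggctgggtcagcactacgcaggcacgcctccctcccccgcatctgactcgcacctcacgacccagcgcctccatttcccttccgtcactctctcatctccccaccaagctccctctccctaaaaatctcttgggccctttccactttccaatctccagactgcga
Slc32a1: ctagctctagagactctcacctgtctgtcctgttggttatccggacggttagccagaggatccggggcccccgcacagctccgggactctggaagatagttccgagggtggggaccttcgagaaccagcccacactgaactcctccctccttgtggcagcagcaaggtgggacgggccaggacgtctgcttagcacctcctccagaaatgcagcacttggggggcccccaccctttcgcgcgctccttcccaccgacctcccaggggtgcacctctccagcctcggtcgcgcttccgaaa
Slc6a11: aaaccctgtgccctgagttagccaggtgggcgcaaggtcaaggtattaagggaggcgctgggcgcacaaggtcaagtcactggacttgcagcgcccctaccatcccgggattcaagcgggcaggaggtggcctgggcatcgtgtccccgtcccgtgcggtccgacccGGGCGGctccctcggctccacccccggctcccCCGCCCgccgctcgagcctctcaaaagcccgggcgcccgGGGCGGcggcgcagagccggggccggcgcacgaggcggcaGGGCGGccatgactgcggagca
Gabbr1: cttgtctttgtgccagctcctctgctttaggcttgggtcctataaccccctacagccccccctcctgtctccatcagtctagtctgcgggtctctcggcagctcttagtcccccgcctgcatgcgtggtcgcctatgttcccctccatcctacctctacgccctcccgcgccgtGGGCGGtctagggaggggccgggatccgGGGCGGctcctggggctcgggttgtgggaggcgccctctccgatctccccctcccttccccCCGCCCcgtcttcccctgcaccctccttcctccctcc
GGGCGG occurred in 4 of the 6 members with an entry (Gad1, Slc6a11, Gabbr1 and Gabbr2) and in 35.7% of 32851 promoters of the same length. TATAAA occurred in Gad1 alone among them and in 13.6% of all. The homeodomain core TAATTA and the E-box CACGTG, present in 5.29% and 7.15% of all promoters, were in none of the 6 windows.

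The libraries held 8375172 to 42892922 UMIs and 1055 to 4439 cells, the median cell of a library held 3426 to 11334.5 UMIs, and pairs of libraries shared 0 to 27 cell barcodes. The labels give the nucleus accumbens as tissue beside the PFC, and the titles and the study name the PFC. In P21 glia the class and the cluster of a cell often disagreed: 29 of 51 oligodendrocyte precursor cells (OPC), 147 of 329 microglia and 99 of 405 astrocytes had a cluster of another class, against at most 0.596% of the cells of any P60 class. P21 replicate 1, both cocaine libraries of 15 days and, outside neurons, both saline libraries of 15 days stood apart in Gabbr1, which is described with that gene. Levels are given as CPM, the UMIs of a gene per 1000000 UMIs of the class in that library, over libraries with at least 10 cells. Fewer cells of a type and less RNA per cell cannot be told apart in a summed class. Mean levels are given with the SD over libraries.

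The genes of synthesis and vesicle loading were at high levels in inhibitory neurons and close to 0 in nearly all other classes. At P60, Gad1 was at 1626 ± 304 CPM in inhibitory neurons (SD, n = 12, 1257 to 2262), Gad2 at 1552 ± 215 CPM (n = 12, 1340 to 2087) and Slc32a1 at 396 ± 45.8 CPM (n = 12, 301.6 to 460). In excitatory neurons the means were 1.202, 0.759 and 0.360 CPM, below those of several glial classes whose ranges overlapped theirs. These orders are a description, since the classes were built from the same genes, and no test was made of them.

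Gad1 stood apart from Gad2 in one glial class. In OPC, Gad1 was second in the order at 36.4 ± 20.6 CPM (n = 11, 6.97 to 73.8), whereas Gad2 was at 5.79 ± 9.10 CPM (n = 11) and was listed at 0 in both P21 libraries with enough cells. After each cell was thinned to 2000 UMIs, 6.77% of P60 OPC held a Gad1 UMI and 0.651% a Gad2 UMI, against 0.562% and 0.450% of endothelial cells, which should lack both genes. Without thinning the shares were 9.38% and 1.04% in OPC and 1.26% and 0.869% in endothelial cells, whose median cells held 3074 and 3871 UMIs. The Gad1 share in OPC thus lay above that background and the Gad2 share close to it, while in inhibitory neurons the same thinned shares were 88.9% and 83.9%. Of the 6 other inhibitory neuron markers examined, 5 had UMIs (over all libraries, including one under 10 cells) in the OPC of the saline P60 libraries, where their summed level was 263 to 556.4 CPM, and their part in the Gad1 level was not tested.

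The clearance genes were placed differently. Slc6a11 was highest in astrocytes at P60, at 248 ± 38.0 CPM (n = 11, 183 to 285.4), with a range that did not meet that of any other class. OPC followed at 33.7 CPM and inhibitory neurons at 19.9 CPM, and these ranges overlapped. After thinning, 39.0% of P60 astrocytes held a Slc6a11 UMI against 0.562% of endothelial cells. Abat had no single class: inhibitory neurons were at 191 ± 43.7 CPM (n = 12), astrocytes at 128 ± 37.0 CPM (n = 11) and newly formed oligodendrocytes (NF Oligo) at 100.3 ± 19.1 CPM (n = 11), each overlapping the next. Excitatory neurons were at 17.1 ± 1.86 CPM (n = 12, 13.7 to 20.9) and did not overlap endothelial cells, the next in order, at 6.95 CPM.

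Both receptor genes were led by neurons. Gabbr1 was at 358 ± 76.4 CPM in inhibitory neurons (n = 12), 345 ± 90.1 CPM in excitatory neurons (n = 12), 254 ± 72.2 CPM in astrocytes (n = 11) and 163 ± 73.9 CPM in OPC (n = 11), and every neighbour in its order overlapped. Gabbr2 was at 162 ± 27.1 CPM in inhibitory and 142 ± 9.87 CPM in excitatory neurons, and astrocytes at 73.9 ± 16.9 CPM lay wholly below both. In mature oligodendrocytes (Oligo) the pair was uneven compared with neurons. Of the UMIs of both subunits, Gabbr2 made up a median of 5.51% in the oligodendrocytes of the saline P60 libraries (0 to 15.2%) against 32.0% in excitatory neurons (26.7 to 33.8%), ranges that did not overlap.

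**Figure D1:**
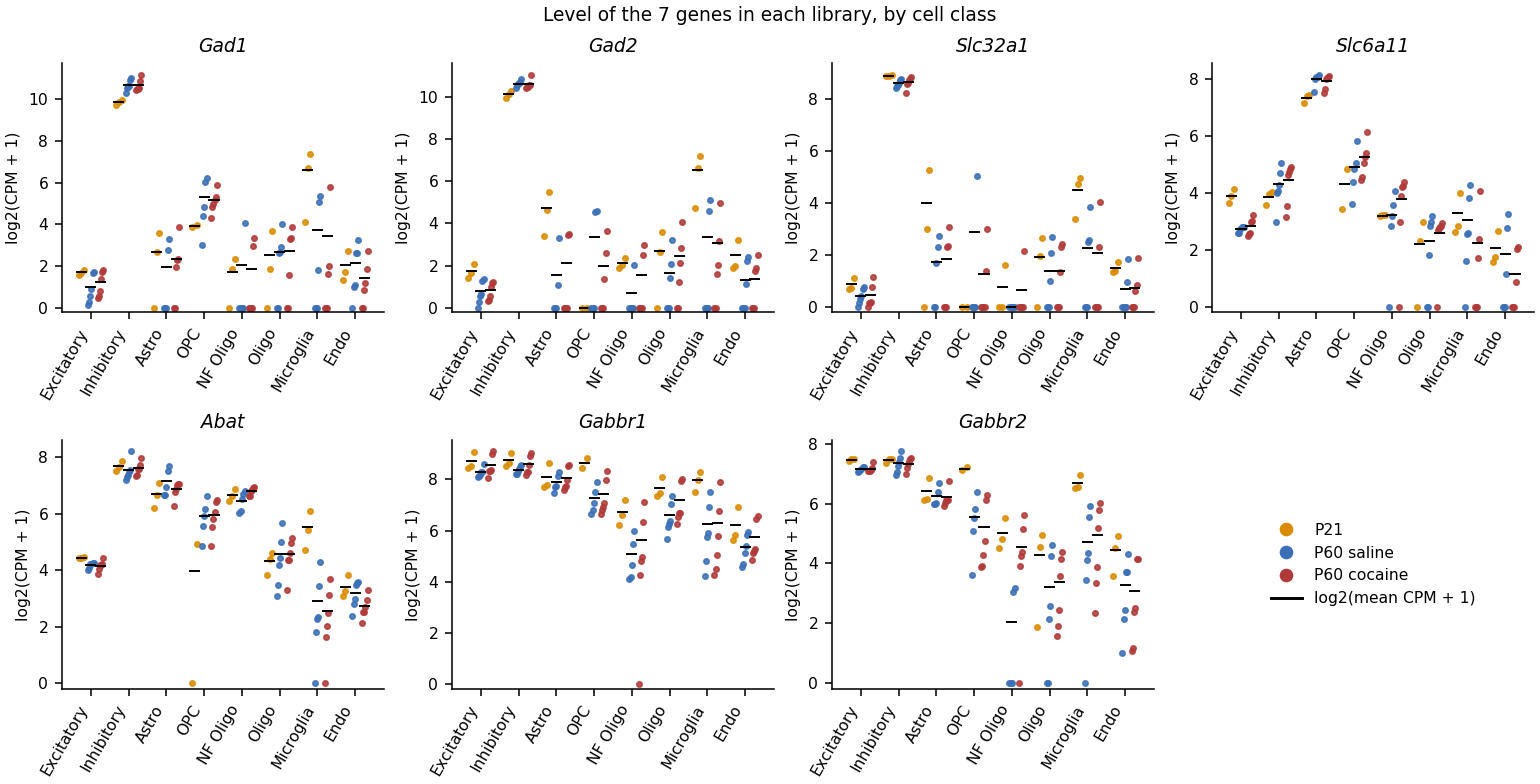
Level of each of the 7 genes as log2(CPM + 1) (vertical axis) in 8 cell classes, with 1 point for each library with at least 10 cells of the class and a bar at the mean level of each group. Gad1, Gad2 and Slc32a1 stand out in inhibitory neurons (P60 means 1626, 1552 and 396 CPM), Slc6a11 in astrocytes (248 CPM), and Abat and the receptor genes are spread over several classes.

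Within neurons the members varied over clusters to very different extents. With all P60 cells summed, Gabbr1 was nearly even over the 26 excitatory clusters, from 328 CPM in Exc_12 to 477 CPM in Exc_26, a ratio of 1.46. Libraries differ in Gabbr1 and in their share of each cluster, so each cluster was also set against the excitatory level of its own library. The mean ratio then ran from 0.822 in Exc_7 to 1.23 in Exc_26, 1.495 times as high, values added after the data were seen. Gabbr2 ran from 39.1 CPM in Exc_21 to 181 CPM in Exc_25, which were also the extremes against the own library (0.270 and 1.33). By library, Exc_21 held 17.4 to 58.6 CPM of Gabbr2 (n = 12), which did not overlap the 70.2 to 138.7 CPM (n = 8) of Exc_26, the next cluster in the order of means over libraries. The same Exc_21 cells had the highest Abat of the excitatory clusters, at 60.0 CPM with all P60 cells summed, against 4.33 CPM in Exc_13. At P21 Exc_21 was again highest, at 57.4 CPM, and Exc_17 was lowest, at 3.73 CPM.

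**Figure D2:**
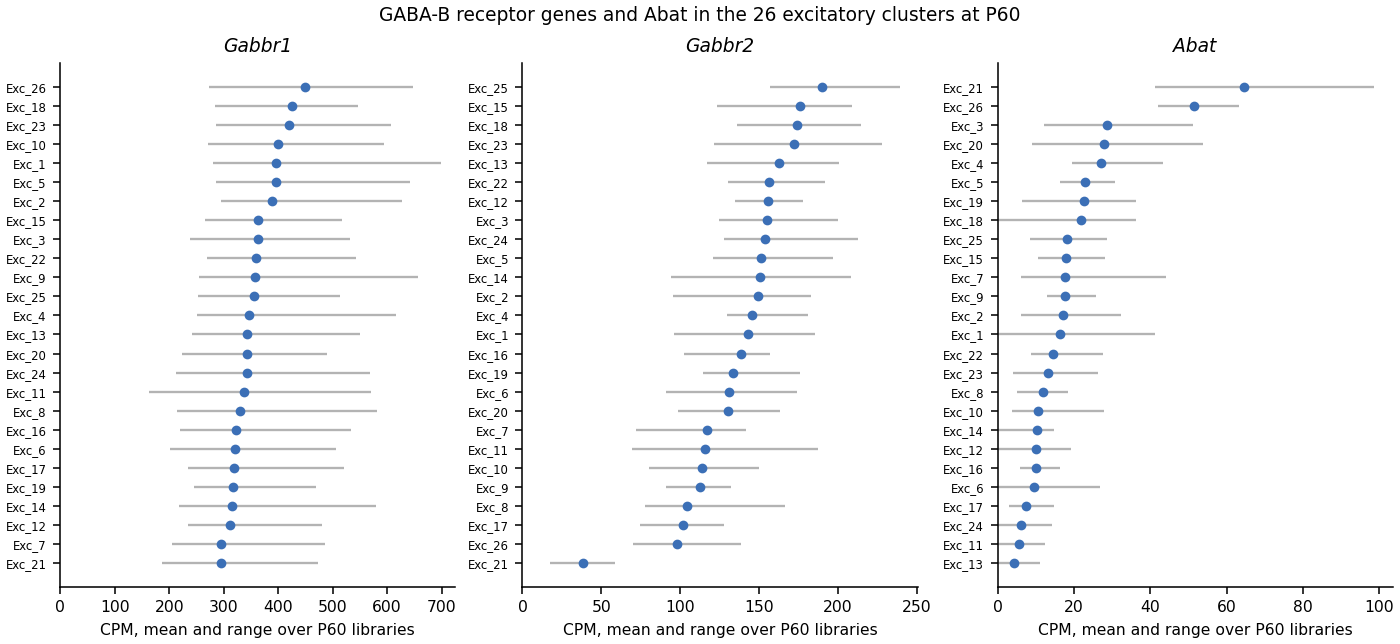
Gabbr1, Gabbr2 and Abat in the 26 excitatory clusters at P60, ordered by mean, with the mean (point) and the range (line) in CPM over P60 libraries with at least 10 cells of the cluster. Exc_21 lies at the low end for Gabbr2 (17.4 to 58.6 CPM) and at the high end for Abat (41.3 to 98.6 CPM), while the Gabbr1 ranges overlap.

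Inhibitory clusters differed in which decarboxylase led. Gad1 at P60 ran from 512 CPM in Inhib_2 to 2295 CPM in Inhib_7, and Gad2 from 406 CPM in Inhib_6 to 2371 CPM in Inhib_7, while Slc32a1 kept within 319 to 464 CPM. The cluster Inhib_2 held 22921 CPM of Sst, Inhib_7 held 29563 CPM of Npy and Inhib_6 held 1611 CPM of Pvalb, which are messages used to tell interneuron types apart. Of the Gad1 and Gad2 UMIs together, Gad1 made up 36.9% in Inhib_2 (exact binomial 95% interval 34.4 to 39.4%) and 77.7% in Inhib_6 (74.1 to 81.0%), the extremes of the 12 clusters. At P21 the same share was 37.2% in Inhib_2 (35.6 to 38.8%) and 55.1% in Inhib_6 (52.9 to 57.4%). The Inhib_6 share at P60 rests on 44 cells, of which only 1 library had 10 or more, so its difference from P21 could not be tested over libraries, and the intervals cover counting error only.

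Abat and Gabbr2 split the inhibitory clusters in another way. Abat was highest at P60 in Inhib_12 (557 CPM, 30 cells) and Inhib_11 (423 CPM, 47 cells), and the same 2 clusters led at P21 with 586 and 436 CPM. Gabbr2 was highest in Inhib_8 (314 CPM) and Inhib_7 (263 CPM) and lowest in Inhib_12 (61.1 CPM). At P21 that order was another, with Inhib_7 highest (370.7 CPM), Inhib_4 lowest (62.35 CPM), Inhib_8 at 178.9 CPM on 26 cells and Inhib_12 at 102.6 CPM. Most inhibitory cells held messages of both decarboxylases: 95.2% of P60 cells and 92.1% of P21 cells as counted, and 76.3% and 63.8% after thinning to 2000 UMIs. Thinning left out 23 of 956 P21 cells and none of the 1175 P60 cells.

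By rule, the 3 genes with the most similar pattern over 82 clusters with at least 50 cells were taken for each member from 12084 genes, by Pearson correlation of log2 levels. For Gad1 they were Dlx5 (r = 0.90), Gad2 (0.89) and Dlx1 (0.89), for Gad2 Dlx5 (0.95), Dlx1 (0.93) and Dlx6as1 (0.92), and for Slc32a1 Dlx1 (0.95), Dlx5 (0.93) and Gad2 (0.92). For Slc6a11 they were Clu (0.88), Cldn10 (0.88) and Aldoc (0.88), and for Abat Clpp (0.82), 5730469M10Rik (0.81) and 2610203C20Rik (0.81). Gabbr1 was closest to Cend1 (0.95), Zcchc18 (0.94) and Sirt3 (0.94), and Gabbr2 to Grina (0.92), Dlg4 (0.92) and Mtfp1 (0.92). The clusters share libraries and differ in depth, so these values are descriptions, and with Spearman correlation 0 or 1 of the 3 genes were the same for each member.

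The comparison of ages asks how these genes differ between the third week of life and adulthood. The 6 saline P60 libraries were set against the 3 P21 libraries in each class, on summed UMI counts with the quasi-likelihood test of edgeR, and a gene is called where its Benjamini-Hochberg adjusted p over all genes tested is below 0.05 and it differs by more than 1.5-fold. Of 56 combinations of member and class, 32 passed the filter on low counts and 9 were called, 2 higher and 7 lower at P60, which is 28.1% against 16.4% of all genes tested over the 8 classes (7.64% higher and 8.78% lower). Most of these calls were in glia. There both the calls and the background depended on how the class of P21 cells was defined, as given below.

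Among the genes of synthesis, Gad1 was called higher at P60 in the inhibitory class taken whole, and Gad2 and Slc32a1 were not called. The cluster mix of that class differed between the ages, as given below. Gad1 was at 827.1, 921.1 and 987.4 CPM in the P21 libraries and at 1257, 1564 and 2023 CPM (lowest, median, highest of 6) in the saline P60 libraries. The groups did not overlap, and the log2 difference was 0.83 ± 0.14 (SE, adjusted p = 0.00072 by edgeR), a 1.78-fold rise. Gad2 was at 981.8, 1099 and 1237 CPM at P21 and at 1340 to 1797 CPM at P60, again without overlap, and its log2 difference of 0.50 ± 0.12 (adjusted p = 0.0081) stayed below the 1.5-fold limit. Slc32a1 lay the other way, at 471.3, 472.5 and 490.1 CPM at P21 against 345.6 to 441.5 CPM at P60, also without overlap (log2 difference -0.30 ± 0.11, adjusted p = 0.072). The share of Gad1 in the UMIs of both decarboxylases was 44.4 to 45.7% in the P21 libraries and 48.3 to 54.7% in the saline P60 libraries.

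In excitatory neurons, where these genes were near 0, the values of Gad1 and Gad2 lay the other way. Slc32a1 was lower at P60 there too, at a mean of 0.336 CPM against 0.830 CPM at P21, with overlapping ranges. Gad2 was at 1.71, 2.16 and 3.29 CPM at P21 and at 0, 0.541 and 1.63 CPM (lowest, median, highest of 6) in the saline P60 libraries. The groups did not overlap, and the difference was not called (-1.29 ± 0.50, adjusted p = 0.059). Gad1 overlapped and was not called (-0.74 ± 0.51, adjusted p = 0.27). Both depended on the settings. With the class taken from the cluster, Gad1 (-1.56, adjusted p = 0.023) and Gad2 (-2.04, adjusted p = 0.0042) were called lower at P60. Slc32a1 was then at 1.71 to 1.947 CPM at P21 and at 0 to 0.607 CPM in the saline P60 libraries, without overlap. Gad2 was also called with DESeq2 (-1.51, adjusted p = 0.030), with all 12 P60 libraries (-1.32, adjusted p = 0.017) and when either saline library of 15 days or saline replicate 2 of maintenance was left out (-1.71 to -1.12, adjusted p of 0.024 to 0.046). After thinning, 0.462% of P21 and 0.394% of P60 excitatory neurons held a Gad1 UMI and 0.427% and 0.215% a Gad2 UMI, each below the share of endothelial cells of the same age (0.769% and 0.562% for Gad1, 0.604% and 0.450% for Gad2). Without thinning the excitatory shares were 1.76% and 2.02% for Gad1 and 1.58% and 1.32% for Gad2, above the endothelial 1.22% and 1.26% for Gad1 and 1.27% and 0.869% for Gad2, where the median excitatory cell held 8266 and 12450 UMIs and the median endothelial cell 3483 and 3871. The 6 other inhibitory neuron markers summed to 11.2 to 12.0 CPM in the excitatory neurons of P21 and to 5.92 to 10.04 CPM in those of the saline P60 libraries, all 6 with UMIs at both ages, and their part in these differences was not tested.

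The make-up of the inhibitory class differed between the ages, and Gad1 was not called in any inhibitory cluster tested. The Inhib_2 cells, low in Gad1, were 34.9% of the inhibitory cells at P21 and 7.94% in the saline P60 libraries, and the Inhib_7 cells, high in Gad1, were 7.95% and 36.3%. With the cluster levels of the saline P60 libraries and only the cluster mix of each library, P21 libraries would have held 957.9 to 1100 CPM of Gad1 in cells of inhibitory clusters, and they held 841 to 1007 CPM, against a saline P60 mean of 1633 CPM. The log2 difference between ages beyond the mix was 0.23 for Gad1, -0.12 for Gad2 and -0.22 for Slc32a1, values added after the data were seen and given without a test. The clusters Inhib_2, Inhib_7 and Inhib_9 were the 3 inhibitory clusters with enough cells in enough libraries for a test. Their Gad1 differences were -0.18, 0.04 and 0.05 on the log2 scale and none was called. Over all 12 clusters with the cells of an age summed, Gad1 was higher at P60 in 9, Gad2 in 3 and Slc32a1 in 0.

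**Figure D3:**
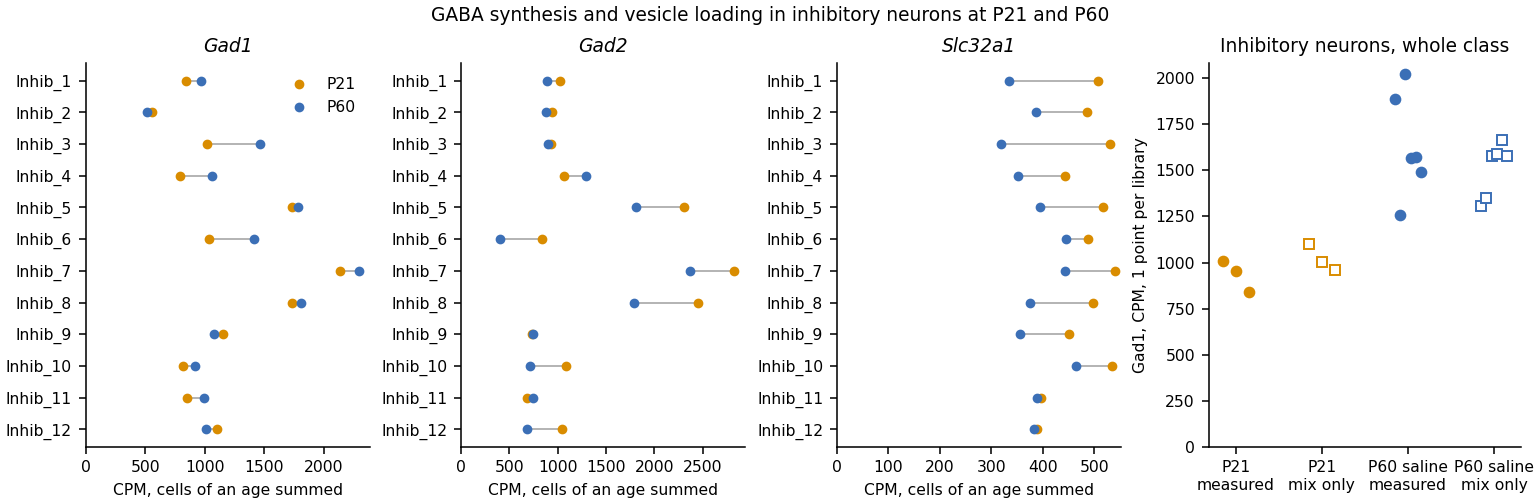
In the 3 panels on the left, Gad1, Gad2 and Slc32a1 are in CPM in the 12 inhibitory clusters, all cells of an age summed, P21 (orange) and P60 (blue, all 12 libraries). The panel on the right gives Gad1 in the cells of inhibitory clusters, 1 point per library, as measured (filled) and as the cluster mix alone would give it at saline P60 cluster levels (open). Slc32a1 is lower at P60 in each of the 12 clusters, and the P21 mix alone gives 957.9 to 1100 CPM of Gad1.

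The transporter gene Slc6a11 fell in excitatory neurons and its values in astrocytes lay the other way. In excitatory neurons it was at 11.6, 13.8 and 16.5 CPM at P21 and at 4.99, 5.80 and 6.04 CPM (lowest, median, highest of 6) at P60. The groups did not overlap, and the log2 difference was -1.27 ± 0.13 (adjusted p = 2.4e-05 by edgeR). It was lower at P60 in 24 of the 26 excitatory clusters with cells summed, and Exc_19 was called on its own (-1.32 ± 0.25, adjusted p = 0.00048). The 6 astrocyte markers summed to 703.3 to 757.5 CPM in the excitatory neurons of P21 and to 336.6 to 557.6 CPM in those of the saline P60 libraries, all 6 with UMIs at both ages, and their part in the difference was not tested. After thinning, 3.25% of P21 and 1.23% of P60 excitatory neurons held a Slc6a11 UMI, against 0.440% and 0.562% of endothelial cells.

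In astrocytes Slc6a11 was at 141.2, 168.7 and 173.5 CPM at P21 and at 188.1 to 285.4 CPM in 5 saline P60 libraries, without overlap, and it was called as higher at P60 (0.79 ± 0.22, adjusted p = 0.048). This call depended on how P21 astrocytes were defined. With the class taken from the cluster of each cell, the P21 libraries held 139.7, 242.2 and 256.8 CPM, the groups overlapped and the difference was 0.19 (adjusted p = 0.80). The call was also lost when any one of 7 libraries was left out, with adjusted p of 0.055 to 0.14: each of the 3 P21 libraries, saline replicate 2 of 15 days, both saline libraries of 48 h and saline replicate 1 of maintenance. The difference between cell classes itself was tested. The age effect on Slc6a11 in excitatory neurons minus that in inhibitory neurons was -1.76 ± 0.29 on the log2 scale (adjusted p = 1.0e-05), and minus that in astrocytes it was -1.99 ± 0.27 (adjusted p = 0.00042). These were the only members called of 7 in either comparison, against 5.67% and 1.31% of all genes. With the class taken from the cluster, Slc6a11 in excitatory neurons minus astrocytes was -1.54 (adjusted p = 0.023), and the first comparison also called Gad1 (-2.13, adjusted p = 0.033), Gad2 (-2.30, adjusted p = 0.016) and Slc32a1 (-1.63, adjusted p = 9.0e-06), each lower. With all 12 P60 libraries it also called Gad2 (-1.61, adjusted p = 0.034). In inhibitory neurons Slc6a11 was at 10.98, 14.7 and 15.2 CPM at P21 and 6.87 to 32.5 CPM at P60, overlapping and not called.

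The mix of inhibitory clusters moved with the difference between the neuron classes. At the cluster levels of the saline P60 libraries, the cluster mix alone gave a mean of 11.3 CPM of Slc6a11 in the inhibitory neurons of P21 and 19.1 CPM in those of the saline P60 libraries. In excitatory neurons it gave 7.23 and 5.73 CPM. Beyond the mix, the log2 difference between ages was -0.97 in excitatory and -0.41 in inhibitory neurons, and the first minus the second was -0.56, against the tested difference of -1.76. These values were added after the data were seen and have no test, and the part of the mix in the tested difference was not tested. Inhib_7, the one inhibitory cluster in which Slc6a11 could be tested, had a log2 difference of -0.35 ± 0.43 and was not called (adjusted p = 0.75).

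**Figure D4:**
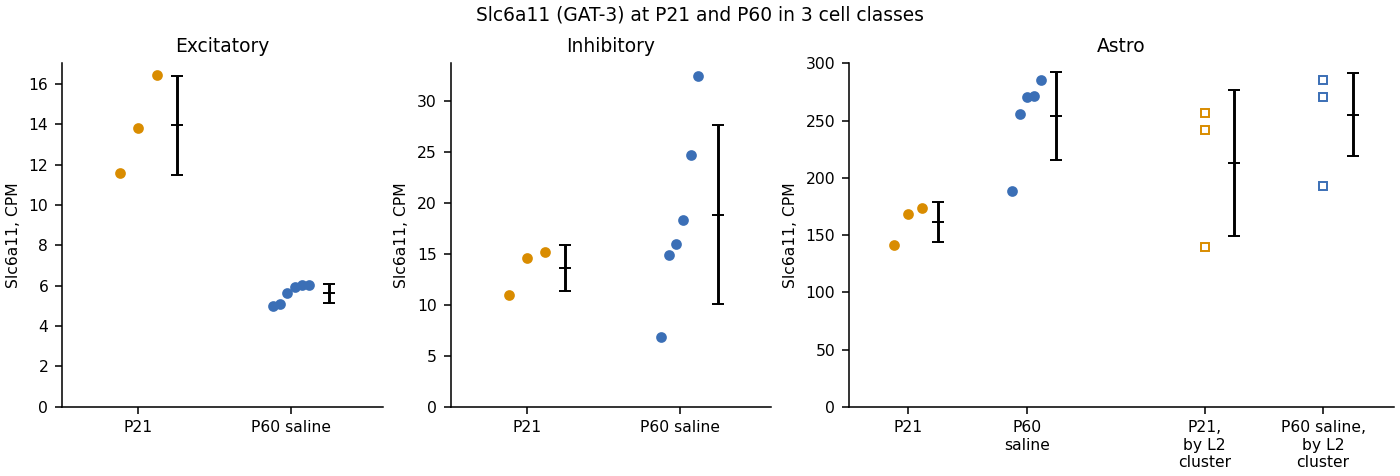
Slc6a11 in CPM at P21 and in the saline P60 libraries, 1 filled point per library, with mean and SD beside them, in excitatory neurons, inhibitory neurons and astrocytes. The open squares give astrocytes defined by their cluster (each of 3 P21 libraries, and the lowest, median and highest of 5 P60 libraries). The excitatory groups do not overlap (11.6 to 16.5 against 4.99 to 6.04 CPM), and the astrocyte groups overlap only when defined by cluster.

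Abat, the transaminase, was not called with age in any class. In inhibitory neurons it was at 184.5, 200.7 and 233.1 CPM at P21 and 144.4 to 295.4 CPM at P60, overlapping. Astrocytes held 73.1, 100.8 and 136 CPM at P21 and 99.9 to 206.9 CPM at P60, also overlapping. In excitatory neurons its 20.45 to 20.95 CPM at P21 did not overlap the 15.0 to 18.2 CPM of P60 (log2 difference -0.23 ± 0.10, adjusted p = 0.081). The excitatory cluster mix alone gave a mean of 20.62 CPM at P21 and 17.13 CPM in the saline P60 libraries, beside 20.62 and 17.08 CPM measured. The part of the mix in this difference was not tested. Within the 11 excitatory clusters tested, Abat was higher at P60 in 7 and lower in 4, with a median log2 difference of 0.065.

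The receptor genes were called lower at P60 in some glial classes and not in astrocytes, and were not called in either neuron class taken whole. In excitatory neurons Gabbr2 was at 172.3, 178 and 178.9 CPM at P21 and at 131.6 to 150.2 CPM at P60 without overlap (-0.28 ± 0.07, adjusted p = 0.0057). Gabbr1 was at 347.8, 367.1 and 540.9 CPM at P21 and at 271.7 to 389.9 CPM at P60, overlapping (-0.39 ± 0.14, adjusted p = 0.039). Both differences were under 1.5-fold. In inhibitory neurons Gabbr1 was likewise lower by less than 1.5-fold (-0.38 ± 0.13, adjusted p = 0.048), and Gabbr2 was not called (-0.04 ± 0.14, adjusted p = 0.90). The inhibitory cluster mix alone gave Gabbr2 a mean of 134.6 CPM at P21 and 170.1 CPM in the saline P60 libraries, which held 172.9 and 163.8 CPM. Of 86 tests in single clusters 4 were called, all lower at P60 (4.65% against 10.6% of all genes, 6.37% lower): Gabbr1 in Exc_24 (-0.69 ± 0.13), Gabbr2 in Exc_24 (-0.62 ± 0.15) and in Exc_8 (-0.63 ± 0.15), and Slc6a11 in Exc_19. The receptor calls were easily lost. Gabbr1 in Exc_24 was lost without P21 replicate 1 (-0.58, under the fold limit) and with all 12 P60 libraries (-0.43, adjusted p = 0.21). Gabbr2 in Exc_24 came under the fold limit without P21 replicate 2 or 3 or saline replicate 1 of 48 h, with 30 cells and without the filter on low counts (-0.58 to -0.49). In Exc_8 it did so without P21 replicate 2 and with all 12 P60 libraries (-0.58 and -0.46). Gabbr1 differences were negative in all 26 excitatory clusters tested and Gabbr2 differences in 24 of 26, with medians of -0.42 and -0.28 beside a median of -0.0064 over all genes. The clusters come from the same libraries, so these are not separate results.

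In glia, Gabbr1 was called lower at P60 in OPC (-1.44 ± 0.30, adjusted p = 0.0051), NF Oligo (-1.41 ± 0.34, 0.015), Oligo (-1.11 ± 0.29, 0.018) and microglia (-1.45 ± 0.48, 0.032). Gabbr2 was called lower in OPC (-1.78 ± 0.50, 0.024) and microglia (-1.73 ± 0.56, 0.027), and did not pass the filter on low counts in NF Oligo or Oligo. In astrocytes neither gene was called (Gabbr1 -0.11 ± 0.24, adjusted p = 0.84, and Gabbr2 -0.09 ± 0.25, adjusted p = 0.88), nor in endothelial cells (-0.93 ± 0.36, adjusted p = 0.11, and -1.24 ± 0.53, adjusted p = 0.14), where DESeq2 called Gabbr1 (-0.96, adjusted p = 0.044). In Oligo, Gabbr1 was at 160.9, 174.3 and 273.4 CPM at P21 and at 49.6, 79.0 and 164.2 CPM (lowest, median, highest of 6) at P60, which overlapped. The P21 microglia held 182.5, 248.8 and 315.3 CPM of Gabbr1 against 17.5 to 179.6 CPM at P60.

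The neuronal message Snap25 moved with these glial values, given here over every library, including those under 10 cells, and its part in them was not tested. It was at 1656 to 2165 CPM in P21 OPC and 0 to 1255 CPM in those of the saline P60 libraries, at 1342 to 1752 and 95.2 to 1221 CPM in microglia, and at 368.7 to 571.6 and 34.0 to 201.9 CPM in NF Oligo. The 4 excitatory neuron markers summed to 794.8 to 903.5 CPM in P21 OPC against 0 to 382.9 CPM, and to 334.6 to 684.2 CPM in P21 microglia against 12.52 to 276.4 CPM, each of the 4 with UMIs. With the class taken from the cluster, the differences in microglia were -0.79 for Gabbr1 (adjusted p = 0.73) and -0.34 for Gabbr2 (adjusted p = 0.99), and in NF Oligo -0.83 for Gabbr1 (adjusted p = 0.38). OPC could not be fitted then, with 1 P21 library left. Without P21 replicate 1, Gabbr1 was no longer called in Oligo (-0.79, adjusted p = 0.11), NF Oligo (-0.99, adjusted p = 0.080) or microglia (-1.14, adjusted p = 0.16), and OPC could not be fitted, with 1 P21 library left. With all 12 P60 libraries it was lost in Oligo (-0.79, adjusted p = 0.14) and NF Oligo (-1.02, adjusted p = 0.14), with a minimum of 30 cells in NF Oligo (-1.03, adjusted p = 0.17), and without the filter on low counts in microglia (-1.39, adjusted p = 0.12). Gabbr1 in NF Oligo was also lost without saline replicate 1 of 15 days (-1.44, adjusted p = 0.060), and Gabbr2 in OPC without saline replicate 1 of 48 h (-1.69, adjusted p = 0.053). In microglia both receptor genes were lost without P21 replicate 1 or 3 or either saline library of maintenance, Gabbr1 also without saline replicate 2 of 48 h and Gabbr2 without P21 replicate 2, with adjusted p of 0.051 to 0.16. Gad1 in the same P21 microglia was at 16.1, 103.7 and 164.3 CPM, overlapping the 0 to 39.8 CPM of P60, and was not called (-2.45 ± 1.01, adjusted p = 0.069), but it was with all 12 P60 libraries (-2.94, adjusted p = 0.022) and without P21 replicate 1 (-3.08, adjusted p = 0.034).

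The remaining comparisons ask what cocaine self-administration changed at each period. During maintenance 0 of 22 tests of members were called (background 0.00459% of all genes), with 0 at an unadjusted p under 0.05, and at 48 h 0 of 33 (background 0.00661%), with 2 at an unadjusted p under 0.05. At 15 days 1 of 33 was called (background 0.327%), with 5 at an unadjusted p under 0.05. Over all periods together 0 of 22 were called (background 0.00689%) with 3 under 0.05, and for the interaction of treatment and period 0 of 22 (background 0.0115%) with 2 under 0.05. Tests at maintenance, over all periods and for the interaction covered 5 classes. Astrocytes, OPC and NF Oligo had too few libraries with enough cells for these, so Slc6a11 in astrocytes was not tested there. In single clusters 0 of 45 tests were called at maintenance (background 0.00647%) and 0 of 62 at 48 h (background 0.00554%), with 3 and 0 at an unadjusted p under 0.05. No inhibitory cluster could be tested at maintenance, and 1 could at 48 h. DESeq2 also called 0 members during maintenance, at 48 h, over all periods and for the interaction.

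In inhibitory neurons the 15-day values of the synthesis genes were close. Gad1 was at 1359 and 1484 CPM after cocaine and at 1472 and 1562 CPM after saline, overlapping (log2 difference -0.09 ± 0.17). Gad2 was at 1342 and 1509 CPM against 1490 and 1576 CPM (-0.10 ± 0.17), and Slc32a1 at 438.6 and 460 CPM against 345.6 and 441.5 CPM (0.20 ± 0.16). All had adjusted p of 1.00 or just under. In simulated data for inhibitory neurons at 15 days, 59% of genes changed by 1 on the log2 scale and 25% of those changed by 0.7 were recovered. Differences of that size could thus be missed for genes in general. The simulation changed genes of many levels above a lower limit, gave each the same spread and held no library-wide pattern. Its rates are therefore not those of Gad1, Gad2 or Slc32a1. Slc6a11 in astrocytes was at 183 and 201.9 CPM after cocaine and 188.1 and 271.2 CPM after saline at 15 days (-0.26 ± 0.19). Abat in astrocytes at 48 h, at 131.3 and 132.4 CPM after cocaine against 180.3 and 206.9 CPM after saline, did not overlap and was not called (-0.56 ± 0.25, adjusted p = 0.995). At 15 days it lay the other way, at 115.9 and 129 CPM after cocaine against 99.9 and 100.7 CPM after saline, again without overlap and not called (0.32 ± 0.21, adjusted p of 1.00).

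The one member called was Gabbr1 in excitatory neurons at 15 days. It was at 503 and 545.5 CPM after cocaine and at 313 and 389.9 CPM after saline, without overlap, and at 263.4 to 329.5 CPM in the 8 other P60 libraries. The log2 difference was 0.62 ± 0.12 (adjusted p = 0.023 by edgeR), a 1.54-fold rise, where 0.706% of all genes in the class were called as higher. In single excitatory clusters, 17 of 26 were called as higher. These were all the calls in 93 tests of members over clusters (18.3% against 1.22% of all genes over all clusters). They are all Gabbr1 in cells of the same libraries, so they are not separate results and the 18.3% is not a share of members. Over the excitatory clusters 1.22% of all genes were called as higher. The differences ran from 0.28 to 0.86 with a median of 0.65 beside -0.0040 over all genes, and Exc_24 had the largest (0.86 ± 0.15, adjusted p = 0.00059). DESeq2 called 3 of these clusters. Gabbr2 was at 135.4 and 138.4 CPM after cocaine and at 141.8 and 147.5 CPM after saline (-0.03 ± 0.09) and was called in none.

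The same Gabbr1 pattern ran through cell classes and through an untreated library. Both cocaine libraries of 15 days lay above both saline libraries of 15 days and above all other P60 libraries in 7 of 8 classes, all but microglia, with ratios of means of 1.15 to 2.08 over the 8 classes. The 2 saline libraries of 15 days in turn lay above every P60 library of the other periods in 6 of 8 classes, all but the neurons. In astrocytes they held 280 and 315.4 CPM against 174.6 to 250 CPM, in Oligo 130.7 and 164.2 CPM against 49.6 to 101.1 CPM, and in microglia 119.5 and 179.6 CPM against 17.5 to 59.3 CPM. Outside neurons, the height of the cocaine libraries of 15 days over the other periods was thus shared in part by the saline libraries of 15 days. In Oligo they were at 241.4 and 257.8 CPM against 130.7 and 164.2 CPM (0.77 ± 0.19, adjusted p = 0.072), and in endothelial cells at 87.5 and 94.0 CPM against 55.7 and 60.6 CPM (0.65 ± 0.18, adjusted p = 0.21). P21 replicate 1, from mice without any self-administration, likewise lay above the other P21 libraries in 8 of 8 classes, by 1.38 to 2.30 times their mean in the 7 classes with 3 libraries. It held 540.9 CPM in excitatory neurons against 367.1 and 347.8 CPM. Gabbr2 shared the height of the saline libraries of 15 days over the other periods in 5 of 8 classes. In astrocytes these libraries held 83.0 and 102.9 CPM of Gabbr2 against 59.95 to 69.3 CPM. Both cocaine libraries of 15 days lay above all other P60 libraries in Gabbr2 in 0 of 8 classes. The classes come from the same libraries, and the share of all genes with such orders was not counted.

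Other genes called with Gabbr1 shared its pattern in P21 replicate 1. Of the 92 other genes called as higher at 15 days in excitatory neurons, 91 (98.9%) were higher in P21 replicate 1 than in both other P21 libraries, against 38.9% of the 13171 genes tested. In inhibitory neurons, where 0.628% of all genes were called as higher, it was 49 of 54 (90.7%) against 35.9%. Cocaine and what sets these libraries apart cannot be told apart at 15 days, as both cocaine libraries carry the pattern. The cocaine and saline libraries of 15 days and P21 replicate 1 also held the most UMIs, from 27704573 to 42892922. The next library held 21149153, and the part of depth in the pattern was not tested. The call was also lost without either cocaine library of 15 days (0.57, adjusted p = 0.35, and 0.67, adjusted p = 0.10) and without saline replicate 1 (0.47, adjusted p = 0.43).

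**Figure D5:**
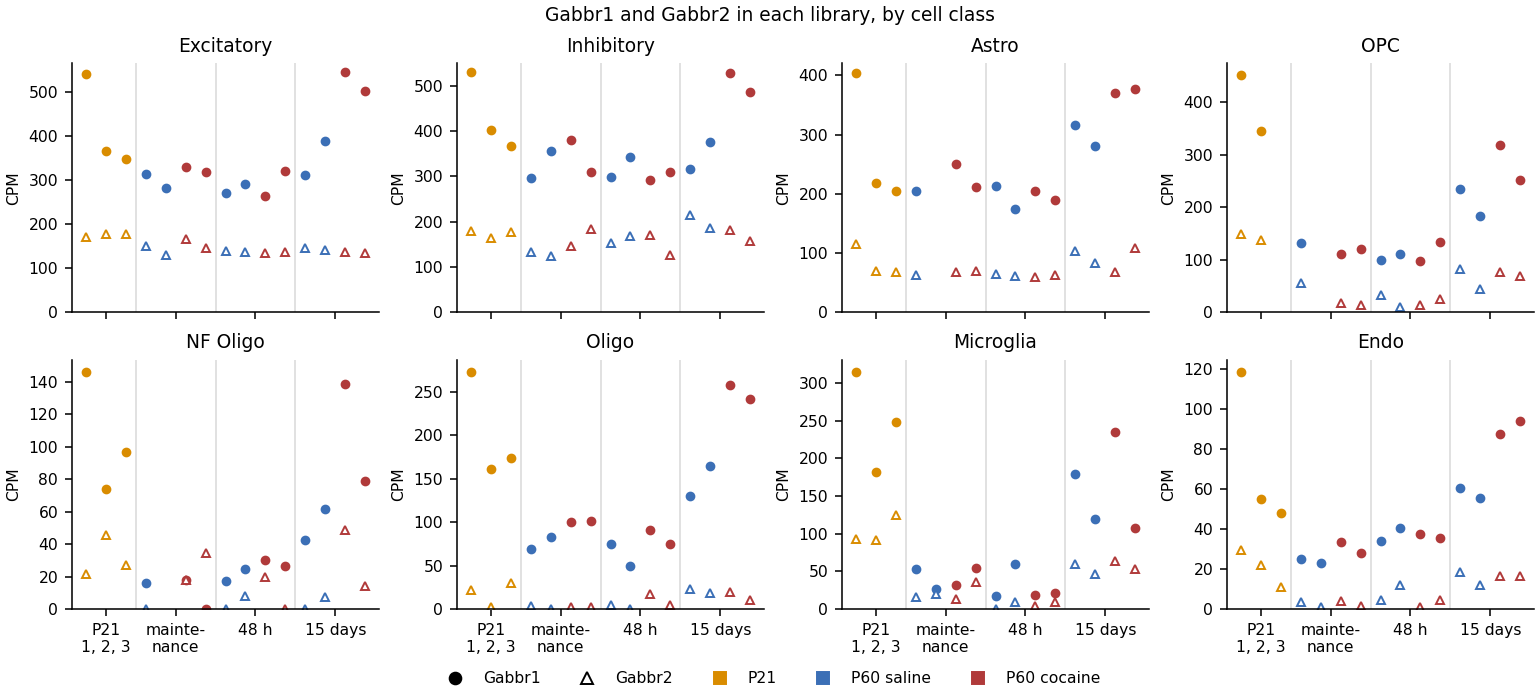
Gabbr1 (filled circles) and Gabbr2 (open triangles) in CPM in each library with at least 10 cells, by cell class. Libraries are in groups from left to right: P21 replicates 1, 2 and 3, then for each period 2 saline and 2 cocaine libraries. Gabbr1 is high in P21 replicate 1 and in both cocaine libraries of 15 days in most classes (540.9 and 503 to 545.5 CPM in excitatory neurons), and Gabbr2 does not share this in neurons.

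The other genes around GABA, 33 of 34 listed symbols found in the files, cover uptake, glutamate supply, further enzymes of GABA metabolism, the cofactor and the partners of the GABA-B receptor. With age, 3 rose and 4 fell of 29 tested in excitatory neurons (18.1% of all genes were called), and 1 rose and 2 fell of 23 in inhibitory neurons (14.1%). In astrocytes 4 rose and 0 fell of 20 (7.63%), and in endothelial cells 3 rose and 2 fell of 26 (13.4%). For OPC it was 4 and 4 of 15 (20.4%), for NF Oligo 1 and 2 of 11 (5.98%), for Oligo 2 and 1 of 15 (16.5%), and for microglia 2 and 7 of 16 (42.4%). These backgrounds depended on how P21 glia were defined. With the class taken from the cluster, 29 of 3993 genes were called in microglia in place of 1897 of 4478, 64 of 5791 in astrocytes (7 higher) in place of 486 of 6370 (228 higher), and 91 of 4693 in NF Oligo in place of 284 of 4751, and OPC could not be fitted. No gene of the list was called in any cocaine comparison that could be fitted, which left out astrocytes, OPC and NF Oligo at maintenance.

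Among the receptor partners, the auxiliary subunit gene Kctd8 fell in both neuron classes. It was at 2.20, 2.44 and 3.82 CPM at P21 and 0.556 to 1.38 CPM at P60 in excitatory neurons (-1.74 ± 0.31, adjusted p = 0.00098), and at 24.46, 24.95 and 31.21 against 0 to 19.1 CPM in inhibitory neurons (-1.38 ± 0.33, adjusted p = 0.0077). The inhibitory cluster mix alone gave Kctd8 a mean of 31.2 CPM at P21 and 9.74 CPM in the saline P60 libraries, beside the 27.9 and 7.77 CPM measured, and its part in the fall was not tested. After thinning, 0.675% of P21 and 0.180% of P60 excitatory neurons held a Kctd8 UMI, and 0 of 1820 P21 and 0 of 3557 P60 endothelial cells did, which allows shares of up to 0.165% and 0.0843%. Without thinning the shares were 2.18% and 1.02% in excitatory neurons and 0.0977% and 0.0280% in endothelial cells, whose median cells held fewer UMIs. Kctd16, of the same family, rose in excitatory neurons from 0.895 to 1.201 CPM at P21 to 1.62 to 2.71 CPM at P60 (0.95 ± 0.24). After thinning, a Kctd16 UMI was in 0.196% of P21 and 0.422% of P60 excitatory neurons. No thinned endothelial cell held one, which again allows shares of up to 0.165% and 0.0843%, so the P21 share lay close to its limit. The G protein subunit gene Gnb1 was at 851.6, 988.3 and 1023 CPM at P21 and at 347.1 to 592.5 CPM at P60 in excitatory neurons, without overlap (-0.92 ± 0.14, adjusted p = 0.00029), and it also fell in inhibitory neurons (-0.70 ± 0.15, and -0.99 beyond the cluster mix). The G protein gene Gng2 (-0.64 ± 0.09) and the adenylyl cyclase gene Adcy1 (-0.62 ± 0.07) fell in excitatory neurons.

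Among the genes of glutamate and glutamine supply, the glutamine transporter gene Slc38a3 rose in astrocytes from 53.6, 70.7 and 107.9 CPM at P21 to 149.9 to 248.6 CPM at P60, without overlap (1.36 ± 0.29, adjusted p = 0.014). Glul, which encodes glutamine synthetase, rose in Oligo from 706.3, 747.3 and 780.3 CPM to 2938 to 5248 CPM (2.32 ± 0.20, adjusted p = 1.6e-06) and in inhibitory neurons from 147.9, 148.2 and 155.7 to 241 to 394 CPM (1.12 ± 0.14). Its age effect in excitatory minus inhibitory neurons was -1.12 ± 0.11 (adjusted p = 1.1e-10). Beyond the cluster mix the inhibitory difference was 0.73 and that between the classes -0.58. These values beyond the mix, like those of Kctd8 and Gnb1, were added after the data were seen and have no test. Among further enzymes of GABA metabolism, the monoamine oxidase gene Maob rose in excitatory neurons from 7.53 to 10.8 CPM to 9.62 to 24.6 CPM (1.02 ± 0.24), with overlapping ranges, and the aldehyde dehydrogenase gene Aldh9a1 rose there (0.69 ± 0.12) and in astrocytes (1.40 ± 0.35). The astrocyte values rest on the same P21 cells as those of Slc6a11.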

How the data were processed

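Reads were aligned by the authors to mm9 (NCBIM37) with Cell Ranger, and cells were filtered, freed of likely doublets and classified with Seurat 2.1.0. The deposited values are raw UMI counts per gene and cell. The authors' table of cells gives class, cluster and the mitochondrial share of each cell as a fraction, which was read but not used in a test. Whether strand was used in counting is not given in the sources used here.

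Counts were summed per library and class or cluster. Mitochondrial genes (13) and those of ribosomal proteins (143) were dropped from the sums, leaving 25989. Groups needed at least 2 libraries with 10 cells. Tests used edgeR 4.0.16 (TMM, its filter on low counts, robust quasi-likelihood fit) in R 4.3.3, with Benjamini-Hochberg adjustment over all genes of a class. The SE of a log2 difference was derived from the test, as its absolute value over the square root of the F statistic. Cocaine comparisons were fitted on all 12 P60 libraries. No table held columns of samples outside the series. On simulated counts, of 100 genes given a log2 difference of 1, 100% were recovered for age in excitatory and 92% in inhibitory neurons. The simulated counts had the same spread for every gene and no library-wide pattern, unlike the data. Only genes above a lower limit of level were given a difference, so these rates do not cover genes at low levels.

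The 7 genes, the lists and the tests were chosen with earlier results of these data known. All 7 members are named, and the other pathway genes named were taken from those called in a class, of which 1 counted among them is not reported here. Alternatives were DESeq2 1.42.0, its size factors, no filter, no fold limit, 30 cells, all 12 P60 libraries, the cluster's class, the omitted genes kept and each library left out. The pseudobulk p-values measure the spread between libraries, which at P60 are separate pools of mice and at P21 may share animals. Python 3.11.15 drew the plots. Promoters come from RefSeq (GRCm38.p6), where 6 of 7 members matched.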

Additional observations from a re-analysis of the deposited data

Results flagged for a closer look

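In 32 groups of 4 to 10 libraries examined, 2 libraries lay far from the rest of their group, where chance gives about 1 in 20 groups. Gabbr1 in the excitatory neurons of saline replicate 2 at 15 days was 389.9 CPM, and the nearest of the 6 saline P60 libraries was at 315.1 CPM. Abat in the inhibitory neurons of saline replicate 2 at maintenance was 295.4 CPM, and the nearest was at 185.8 CPM.

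The age effect on Slc6a11 differed between cell classes. In excitatory neurons it was lower than in inhibitory neurons by 1.76 on the log2 scale (difference -1.76), and lower than in astrocytes by 1.99 (difference -1.99), each called by the test of the difference itself with edgeR. The mix of inhibitory clusters moved with the first, which was -0.56 beyond the mix, and the part of the mix in it was not tested.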

How the results depend on the processing

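Among counts of called members, 74 of 81 alternatives other than leaving out a library stayed within 1.5 times the main count. A count within that limit can rest on other members. With the class of the cluster, the age count over classes lost calls in microglia, NF Oligo and astrocytes and gained Gad1 and Gad2 in excitatory neurons. It also lost the calls in OPC, which could not be fitted. The age count over clusters was 4 and became 16 without the filter on low counts and 10 without the fold limit. The 15-day count over classes was 1 and became 3 without that filter, the 15-day count over clusters was 17 and became 3 with DESeq2, and the interaction count was 0 and became 1 without the filter. The count for the difference between excitatory and inhibitory neurons was 1 and became 2 with all 12 P60 libraries and 4 with the class of the cluster. The cause was not tested.

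Leaving out each library in turn gave 5 to 9 calls for age over classes (5 without P21 replicate 1 or 2), 3 to 16 for age over clusters (16 without saline replicate 2 of 15 days, 11 and 9 without P21 replicates 2 and 3), 0 to 2 for 15 days over classes (2 without cocaine replicate 2 of 48 h, saline replicate 2 of 15 days or either saline library of 48 h, and 0 without the 3 libraries named with Gabbr1) and 1 to 19 for 15 days over clusters (1 without saline replicate 1 of 15 days, 2 and 8 without cocaine replicates 1 and 2). It left 0 to 0 calls at maintenance and 48 h, over all periods and for the interaction, and 1 to 1 for both differences between classes. Of 445 single tests under the other alternatives, 378 kept their side of the threshold, 33 lost and 29 gained a call, 5 given beyond the cluster mix moved without a test, and none turned its direction while called. Gad1 in inhibitory neurons and Slc6a11 in excitatory neurons stayed called for age under every alternative that tests them. None of these tests held the mix of inhibitory clusters, which differed between the ages, and Gad1 was not called in any inhibitory cluster tested. No paired analysis was possible because the replicate numbers were given in order of accession and tie no library to another. Depth limits Gad1, Gad2 and Slc32a1 outside inhibitory neurons, where several libraries held 0 UMIs.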
